A study of Mus musculus with 9 samples.

Results

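The interleukin-6 (IL-6) cytokine family and the signal it passes to STAT3 were followed through 10 genes in 3T3-L1 cells, an established mouse embryonic fibroblast line that turns into adipocytes when given hormones. The genes are the ligands Il6, Lif and Il11, the receptor chains Il6ra, Il6st, Lifr and Osmr, the transcription factor Stat3, and Socs3 and Bcl3, a pair of known STAT3 targets. They were taken by symbol from tables of 54532 genes, and all 10 were present once. Poly A RNA was sequenced in 9 libraries, 3 from each of 3 groups. The labels give 3 days at confluence for all 3 groups. Undifferentiated cells are the control that was not given the differentiation cocktail. Differentiated cells were then put in a medium with 1 μM dexamethasone, the phosphodiesterase inhibitor IBMX at 0.5 mM, 1 μM rosiglitazone and 10 μg/mL insulin. Lysfree cells had the same cocktail in a medium to which no lysine was added. Per the study's methods, the differentiation medium was a DMEM made without arginine and lysine, to which arginine was added back for both cocktail groups and lysine for the Differentiated group only, and it held fetal bovine serum where the growth medium before it held bovine calf serum. Cocktail, basal medium, serum and time in culture therefore cannot be told apart in a comparison with Undifferentiated, while Lysfree and Differentiated differ in lysine. RNA was collected at the end of the differentiation step. Nothing in the labels says that the libraries of a group came from separate cultures, so p-values measure the spread between these libraries, which may be technical. In the edgeR tests of Differentiated vs Undifferentiated that spread was pooled over genes and not taken from each gene alone.

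Cytokines of this family are small secreted proteins that share a signalling receptor chain, gp130, which Il6st encodes. IL-6 first binds IL-6 receptor alpha (Il6ra), IL-11 binds its own alpha chain, LIF brings together LIFR and gp130, and oncostatin M brings together OSMR and gp130. The joined chains activate Janus kinases, which phosphorylate STAT3, and STAT3 then enters the nucleus and raises genes that include Socs3, whose protein shuts the same receptor complex off. In adipose tissue IL-6 is made by stromal cells and preadipocytes as well as by fat cells and immune cells. The libraries measure mRNA only, so receptor protein, secreted cytokine and STAT3 phosphorylation were not measured here.

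The libraries held 15880144 to 21806693 counts each (median 17784064). The labels call all cells fibroblasts, and the summed level of 9 adipocyte markers (Pparg, Cebpa, Adipoq, Fabp4, Plin1, Lpl, Cd36, Lep and Cidec) was 6890 to 7246 FPKM (fragments scaled for gene length and library total) in Differentiated libraries, against 314 to 395 in Undifferentiated and 292 to 408 in Lysfree libraries. All 9 were higher in Differentiated than in Undifferentiated cells, by log2 fold changes of 1.51 to 6.03, and all 9 were lower in Lysfree than in Differentiated cells (edgeR, adjusted p under 0.05 and at least 2-fold). The similar sums of Undifferentiated and Lysfree libraries came largely from Lpl, at means of 146 and 188 FPKM. By the same rule, Lysfree against Undifferentiated had Cd36 higher (4.53-fold) and 3 of the 9 lower, against 5.52% and 8.76% of all genes. The 3 lower were Adipoq (13.4-fold), Cidec (2.96-fold) and Cebpa (2.69-fold). Lep was at 0 counts in every Lysfree library. Of 7 fibroblast and preadipocyte markers (Pdgfra, Pdgfrb, Thy1, Col1a1, Col3a1, Dlk1 and Ly6a), the sum was 3691 to 3953 FPKM in Undifferentiated, 856 to 861 in Differentiated and 1415 to 1436 in Lysfree libraries. Most of the Undifferentiated sum came from Col1a1 and Col3a1, at means of 1887 and 1365 FPKM. Between Lysfree and Undifferentiated cells the markers split, with 5 lower and 2 higher (edgeR, adjusted p under 0.05, 17.1% and 18% of all genes). The 2 higher were Ly6a (4.28-fold) and Thy1 (1.31-fold). Of 8 macrophage and leukocyte markers, Adgre1 and Itgam were at 0 in all 9 libraries, and the sums were 19.1 to 22.7, 9.07 to 10.6 and 12.5 to 14.3 FPKM in Undifferentiated, Differentiated and Lysfree libraries. Their largest part came from Lyz2, Cd68 and Cd14, with mean levels of 13.3, 1.65 and 5.54 FPKM in Undifferentiated, 0.699, 4.12 and 4.93 FPKM in Differentiated and 3.49, 4.40 and 5.19 FPKM in Lysfree cells. Lyz2 was 5.13-fold higher in Lysfree than in Differentiated cells (edgeR, adjusted p = 3.35e-07), moving with Il6 in that comparison but not against Undifferentiated cells, where it was 3.68-fold lower (adjusted p = 4.48e-11), and its part in the Il6 result was not tested. The 5 endothelial markers summed to at most 0.630 FPKM in any library, with Vwf at a mean of 0.325 FPKM in Lysfree, 0.0251 in Undifferentiated and 0.0107 in Differentiated cells, and the 4 epithelial markers summed to at most 0.436 FPKM.

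One library stood apart from its group. A chi-square of the counts over all genes, divided by its degrees of freedom, was 39.6 and 40.7 for Lysfree 1 against Lysfree 2 and 3, 2.67 between Lysfree 2 and 3, and at most 11.3 between any other pair within a group. Its part in the values of these 10 genes was measured by leaving it out. Values with and without it are given below for Il6, Lif, Il11, Il6st, Osmr, Il6ra, Socs3 and Bcl3. In this library Il6 was 1.32 times, Osmr 1.34 times and Il6st 1.23 times the mean of the other Lysfree libraries, while Socs3 was 0.695 times and Bcl3 0.685 times that mean. Among 12661 genes, 66.8% deviated less than Il6 between this library and the others, and 79.2% less than Socs3. For Il11 and Lif, which rest on few counts, these shares were 95.9% and 98.1%.

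Il6 had the largest difference of the 10 genes in both comparisons with Lysfree, so the 250 bases before its RefSeq start site are shown beside those of the other two ligands, from build GRCm38.p6, with short motif matches in capitals. The Il6 window is chr5:30012864-30013113 on the plus strand and the Lif window chr11:4257318-4257567 on the plus strand. The Il11 window is chr7:4778142-4778391 on the minus strand, before the second of its RefSeq starts, which lies 4716 bases into the gene as the tables give it. The window before the first Il11 start, chr7:4782858-4783107, held no match to any of the motifs and is not shown.
Il6: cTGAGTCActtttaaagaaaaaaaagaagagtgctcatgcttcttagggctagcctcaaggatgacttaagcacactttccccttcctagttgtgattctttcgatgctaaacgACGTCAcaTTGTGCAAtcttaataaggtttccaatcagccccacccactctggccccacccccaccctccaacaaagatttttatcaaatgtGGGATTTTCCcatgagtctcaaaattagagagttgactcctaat
Lif: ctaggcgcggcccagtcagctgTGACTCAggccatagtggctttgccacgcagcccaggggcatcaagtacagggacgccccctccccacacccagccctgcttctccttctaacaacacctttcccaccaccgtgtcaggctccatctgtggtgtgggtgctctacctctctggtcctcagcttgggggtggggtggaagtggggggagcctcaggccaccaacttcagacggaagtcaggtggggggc
Il11: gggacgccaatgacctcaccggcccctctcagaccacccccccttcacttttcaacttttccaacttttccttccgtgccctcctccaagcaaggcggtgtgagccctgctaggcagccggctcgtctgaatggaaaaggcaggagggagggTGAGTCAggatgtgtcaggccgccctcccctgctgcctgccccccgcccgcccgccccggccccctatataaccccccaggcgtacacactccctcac
The search covered both strands for STAT (TTCNNNGAA), AP-1 (TGANTCA), C/EBP (TTGCNNAA), the cyclic AMP half-site (TGACGT), a C/EBP-ATF composite (TGATGNAA) and the NF-kappaB decamer, by name. The half-site and the C/EBP match lie close together in Il6 without overlap. In Il6 the capitals mark, 5′ to 3′, an AP-1 match, the half-site, the C/EBP match and an NF-kappaB match. In Lif and Il11 they mark an AP-1 match each, at positions -228 to -222 and -98 to -92 before the start. All 10 genes had a RefSeq promoter, in 12 windows since Il11 and Lifr have a pair each. An AP-1 match stood in 3 of the 12, the windows shown above, and in 6.75% of 32851 promoter windows of this length. An NF-kappaB match stood in Il6 (3.90% of windows), a half-site in Il6 (6.47%), a C/EBP match in Il6 (9.56%) and a STAT match in Socs3 (7.02%), each in 1 of the 12, and the composite (3.45%) in none. Other starts also lie inside the gene as the tables give it, at 681 bases for Socs3, 656 for Osmr, and 38958 and 49928 for Lifr. The Osmr window lies in annotated exons over all 250 bases, and the Socs3 window over 77. A match is a stretch of letters, and no binding was measured.

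Il6 encodes the cytokine that gives the family its name. Its gene lies at chr5:30013114-30019981 on the plus strand (ENSMUSG00000025746, GRCm38 as in the tables). Its level was 0.290, 0.188 and 0.257 FPKM in Undifferentiated libraries, 0.293, 0.310 and 0.382 FPKM in Differentiated libraries and 5.37, 3.80 and 4.35 FPKM in Lysfree libraries. Every Lysfree library was above every other library. Fewer cells that express a gene and less of its RNA per cell cannot be told apart in such bulk libraries. The counts behind these levels were 10 to 15 in Undifferentiated, 11 to 15 in Differentiated and 176 to 229 in Lysfree cells. Il6 was 14.2-fold higher in Lysfree than in Differentiated cells, a log2 fold change of 3.83 ± 0.23 (SE, n = 3 per group, edgeR quasi-likelihood test, adjusted p = 1.83e-11). Against Undifferentiated cells it was 18.9-fold higher, a log2 fold change of 4.24 ± 0.26 (edgeR, adjusted p = 3.22e-15). The cocktail with lysine gave no difference that passed the test, at a log2 fold change of 0.40 with a 95% interval of -0.50 to 1.29 (edgeR, adjusted p = 0.505), although the Differentiated range lay just above the Undifferentiated one. Without Lysfree 1 the increases were 12.7-fold over Differentiated and 16.8-fold over Undifferentiated.

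Lif encodes leukaemia inhibitory factor, best known for keeping mouse embryonic stem cells undifferentiated. The gene lies at chr11:4257557-4272514 on the plus strand (ENSMUSG00000034394). Its level was 0.151, 0.0943 and 0.187 FPKM in Undifferentiated, 0.787, 0.630 and 0.669 FPKM in Differentiated and 0.0916, 0.289 and 0.225 FPKM in Lysfree libraries. The Differentiated libraries were the highest, and the Undifferentiated and Lysfree ranges overlapped. Lif rose 4.80-fold in Differentiated over Undifferentiated cells (log2 2.26 ± 0.32 SE, edgeR adjusted p = 4.8e-12) and was 3.24-fold lower in Lysfree than in Differentiated cells (log2 -1.69 ± 0.33, adjusted p = 0.000274). Lysfree against Undifferentiated gave a log2 fold change of 0.57 with an interval of -0.34 to 1.47, and did not pass (edgeR, adjusted p = 0.392). Without Lysfree 1 the log2 fold change of Lif was -1.38 against Differentiated and 0.88 against Undifferentiated cells. Counts were 47 to 53 in Differentiated libraries and 7 to 24 elsewhere, so the intervals are wide.

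Il11 encodes interleukin-11, a fibroblast cytokine, and lies at chr7:4772373-4782857 on the minus strand (ENSMUSG00000004371). It was the scarcest of the ligands by counts, with 3 to 27 in any library. The levels were 0.397, 0.181 and 0.0931 FPKM in Undifferentiated, 0.418, 0.400 and 0.831 FPKM in Differentiated and 0.226, 0.104 and 0.102 FPKM in Lysfree libraries. Like Lif, Il11 was highest in the 3 Differentiated libraries, of which the third was about as high as the other two together. The log2 fold change was 1.20 ± 0.44 (SE) for Differentiated over Undifferentiated (edgeR, adjusted p = 0.0152) and -1.85 ± 0.50 for Lysfree over Differentiated (adjusted p = 0.00491). Leaving out Differentiated 3 took both past the threshold, to adjusted p-values of 0.264 and 0.0621 (edgeR), as did Undifferentiated 2 or 3 (0.0544 and 0.110), DESeq2 (0.0945) or limma on log2(FPKM + 1) (0.112) for the first of them. Without Lysfree 1 the log2 fold change of Il11 in Lysfree over Differentiated was -2.32.

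**Figure D1:**
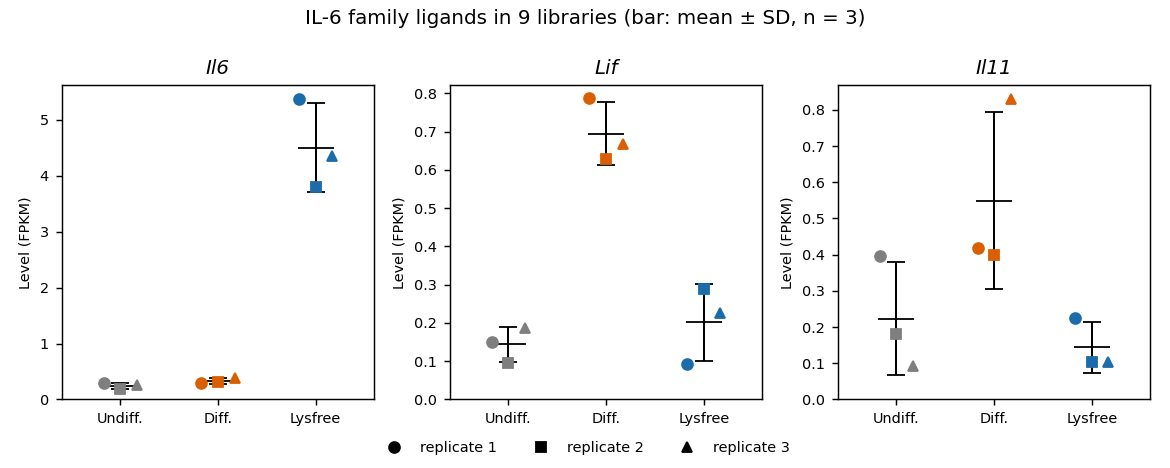
Levels of Il6, Lif and Il11 in FPKM (linear axes from 0, scaled per gene) in each of the 9 libraries, with bars for mean ± SD of 3 libraries and a marker shape per replicate number. Il6 sits at 3.80 to 5.37 FPKM in the Lysfree libraries and at or below 0.382 in all others, while Lif and Il11 are highest in the Differentiated libraries.

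The shares of Il6, Lif and Il11 among themselves differed between the groups. These 3 ligands summed to 0.613 ± 0.198 FPKM (SD, n = 3) in Undifferentiated, 1.57 ± 0.279 in Differentiated and 4.85 ± 0.760 in Lysfree cells. Il6 made up 41.0 ± 6.65% of that sum in Undifferentiated, 21.0 ± 1.88% in Differentiated and 92.7 ± 1.92% in Lysfree cells. The ranges of the 3 groups did not overlap for either quantity, and an exact two-sided permutation test gave p = 0.1 for each pair of groups, the smallest p that 3 libraries against 3 allow. Over the 15 such tests made on 5 sums and ratios, the Benjamini-Hochberg adjusted p of these exact tests was 0.107. The shares cover these 3 genes and not the whole family, of which Clcf1 stood at a mean of 9.84 FPKM and Ctf1 at 3.03 FPKM in Lysfree cells, against 4.51 FPKM for Il6.

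The receptor chains moved apart from one another. Il6st, for gp130, lies at chr13:112464070-112510086 on the plus strand (ENSMUSG00000021756). Its level was 35.4, 34.5 and 36.1 FPKM in Undifferentiated, 16.9, 16.8 and 16.4 FPKM in Differentiated and 47.8, 39.4 and 38.3 FPKM in Lysfree libraries. Differentiated cells thus had the lowest level, and the ranges of the 3 groups did not overlap. Il6st fell 2.16-fold in Differentiated against Undifferentiated cells (log2 -1.11 ± 0.05 SE, edgeR adjusted p = 5.01e-95) and was 2.62-fold higher in Lysfree than in Differentiated cells (log2 1.39 ± 0.09, adjusted p = 7.25e-11). The difference of Lysfree from Undifferentiated was 1.22-fold (edgeR, adjusted p = 0.0192) and did not pass when any single Undifferentiated library was left out (adjusted p 0.053 to 0.0845) or in limma on log2(FPKM + 1) (0.119). Without Lysfree 1 it was 1.12-fold (edgeR, adjusted p = 0.0112), and the increase over Differentiated was 2.40-fold.

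Osmr, for the oncostatin M receptor beta chain, lies at chr15:6813577-6874969 on the minus strand (ENSMUSG00000022146). It stood at 9.41, 8.77 and 8.76 FPKM in Undifferentiated, 7.67, 7.81 and 7.54 FPKM in Differentiated and 30.2, 22.0 and 23.2 FPKM in Lysfree libraries. The Lysfree libraries were far above the rest, and Differentiated lay just under Undifferentiated. The increase in Lysfree cells was 3.42-fold over Differentiated (log2 1.77 ± 0.11 SE, edgeR adjusted p = 1.54e-11) and 2.89-fold over Undifferentiated (log2 1.53 ± 0.11, adjusted p = 2.17e-13). Without Lysfree 1 these were 3.04-fold and 2.55-fold. Differentiated cells were lower than Undifferentiated by a log2 fold change of -0.25 ± 0.06 (edgeR, adjusted p = 8.06e-05).

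Lifr, for the LIF receptor, lies on the same chromosome as Osmr, at chr15:7090614-7197489 on the plus strand (ENSMUSG00000054263). It was lower in Lysfree than in either other group, where Osmr was higher, and both were lower in Differentiated than in Undifferentiated cells. It stood at 12.8, 11.5 and 12.7 FPKM in Undifferentiated, 5.10, 5.97 and 4.91 FPKM in Differentiated and 4.51, 3.93 and 3.78 FPKM in Lysfree libraries. Both cocktail groups were well below Undifferentiated, with log2 fold changes of -1.24 ± 0.06 for Differentiated (SE, edgeR adjusted p = 2e-85) and -1.55 ± 0.11 for Lysfree (adjusted p = 8.42e-14). Lysfree was a further 1.25-fold below Differentiated (edgeR, adjusted p = 0.0239), which did not pass without Differentiated 2, Lysfree 2 or Lysfree 3 (adjusted p 0.197, 0.0666 and 0.0901) or on library sizes alone (0.0816).

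Il6ra, for the chain that binds IL-6 itself, lies at chr3:89864059-89913196 on the minus strand (ENSMUSG00000027947). It was the scarcest receptor, at 3.25, 3.56 and 3.63 FPKM in Undifferentiated, 2.24, 2.53 and 2.27 FPKM in Differentiated and 2.93, 2.62 and 2.89 FPKM in Lysfree libraries. The order of the groups was Undifferentiated, Lysfree, Differentiated, with no overlap. Il6ra fell in Differentiated against Undifferentiated cells (log2 -0.59 ± 0.09 SE, edgeR adjusted p = 3.05e-10). Its level in Lysfree over Differentiated cells was 1.25-fold (adjusted p = 0.0392), a difference that did not pass without Differentiated 1, 2 or 3 or without Lysfree 3 (edgeR, adjusted p 0.0521 to 0.174). Lysfree against Undifferentiated gave a log2 fold change of -0.26 and did not pass (edgeR, adjusted p = 0.113), although it did without Lysfree 1 (-0.31, adjusted p = 0.00481). With all libraries it also passed under the expression filter of edgeR (-0.30, adjusted p = 0.031). The same held with at least 10 counts in every library (-0.32, edgeR adjusted p = 0.0214).

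The 4 receptor chains summed to 58.3 to 61.2 FPKM in Undifferentiated, 31.1 to 33.1 in Differentiated and 67.9 to 85.4 in Lysfree libraries. There were 10.2 ± 0.620 FPKM of Il6st for each FPKM of Il6ra in Undifferentiated (SD, n = 3), 7.13 ± 0.460 in Differentiated and 14.9 ± 1.51 in Lysfree cells. The ratio of Osmr to Lifr, whose proteins are alternative partners of gp130, was 0.729 ± 0.0365 in Undifferentiated, 1.45 ± 0.123 in Differentiated and 6.14 ± 0.552 in Lysfree cells. Neither ratio overlapped between any pair of groups (exact two-sided permutation test, p = 0.1 for each pair, the smallest possible).

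**Figure D2:**
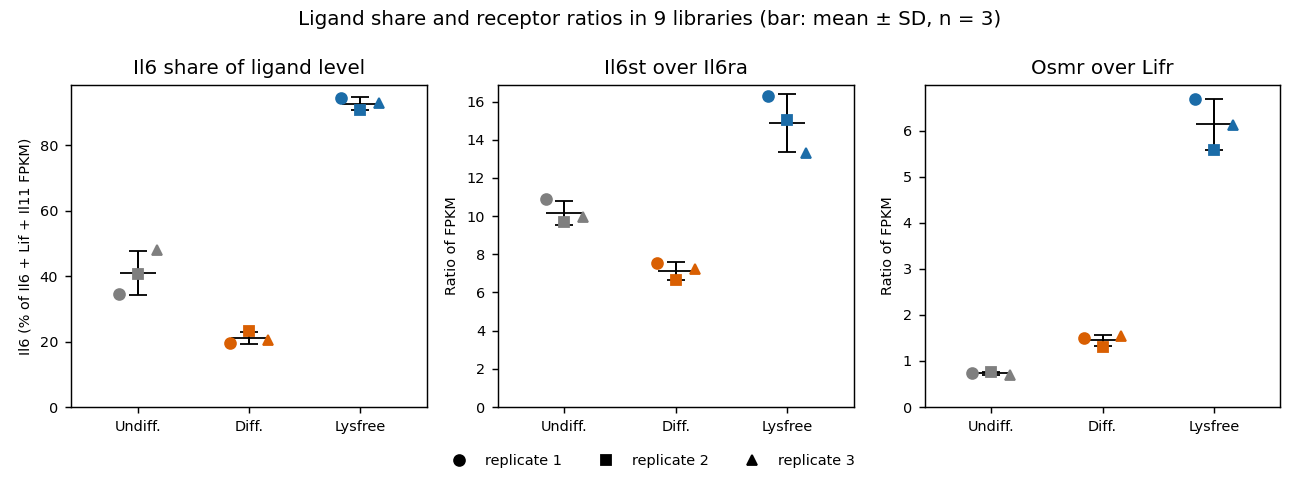
Share of Il6 in the summed FPKM of Il6, Lif and Il11 (percent), FPKM of Il6st over FPKM of Il6ra, and FPKM of Osmr over FPKM of Lifr in each of the 9 libraries, with bars for mean ± SD of 3 libraries. The Lysfree libraries are the highest in all 3 panels, with Osmr over Lifr at 5.59 to 6.70 against at most 1.54 elsewhere.

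Stat3 encodes the transcription factor that carries the signal of gp130 to the nucleus, and lies at chr11:100885098-100939540 on the minus strand (ENSMUSG00000004040). Its level was 23.2, 22.5 and 22.7 FPKM in Undifferentiated, 24.4, 24.7 and 23.5 FPKM in Differentiated and 34.1, 32.3 and 32.4 FPKM in Lysfree libraries. All Lysfree libraries were above all others. Stat3 rose 1.42-fold in Lysfree over Differentiated cells (log2 0.51 ± 0.08 SE, edgeR adjusted p = 2.83e-05) and 1.49-fold over Undifferentiated cells (log2 0.58 ± 0.09, adjusted p = 5.62e-06). Differentiated against Undifferentiated gave a log2 fold change of 0.06 with a 95% interval of -0.05 to 0.16 (edgeR, adjusted p = 0.393). Stat3 shares 72 bases with Stat5a on the other strand, which had 645 to 1620 counts, against 3456 to 5987 for Stat3.

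Socs3 encodes the feedback inhibitor that binds gp130 and Janus kinases, and lies at chr11:117966079-117970047 on the minus strand (ENSMUSG00000053113). It stood at 18.7, 17.7 and 17.9 FPKM in Undifferentiated, 11.9, 10.6 and 12.9 FPKM in Differentiated and 15.4, 21.5 and 22.7 FPKM in Lysfree libraries. Differentiated cells were lowest, and Lysfree 1 was below the Undifferentiated range while Lysfree 2 and 3 were above it. Socs3 fell in Differentiated against Undifferentiated cells (log2 -0.64 ± 0.08 SE, edgeR adjusted p = 2.21e-16) and was 1.76-fold higher in Lysfree than in Differentiated cells (log2 0.81 ± 0.13, adjusted p = 3.7e-05). Against Undifferentiated cells the Lysfree value was log2 0.18 ± 0.12 (edgeR, adjusted p = 0.292), and without Lysfree 1 it was 0.31 ± 0.08 and passed (adjusted p = 0.000247). Per FPKM of Stat3, Socs3 was 0.795 ± 0.0127 in Undifferentiated, 0.490 ± 0.0605 in Differentiated and 0.605 ± 0.135 in Lysfree cells (SD, n = 3), and the last 2 groups overlapped (exact two-sided permutation test, p = 0.3).

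Bcl3 encodes an atypical nuclear IkappaB protein that works with NF-kappaB p50 and p52, and lies at chr7:19808462-19822770 on the minus strand (ENSMUSG00000053175). Its levels were 9.71, 8.92 and 8.43 FPKM in Undifferentiated, 6.87, 6.03 and 6.68 FPKM in Differentiated and 8.48, 12.0 and 12.7 FPKM in Lysfree libraries. As with Socs3, the Differentiated libraries were lowest and Lysfree 1 lay below the other Lysfree libraries. Bcl3 fell in Differentiated against Undifferentiated cells (log2 -0.50 ± 0.10 SE, edgeR adjusted p = 1.83e-06) and was 1.78-fold higher in Lysfree than in Differentiated cells (log2 0.83 ± 0.15, adjusted p = 8.69e-05). The change of Lysfree over Undifferentiated was log2 0.35 ± 0.14 (edgeR, adjusted p = 0.0593), and without Lysfree 1 it was 0.48 ± 0.10 (adjusted p = 7.04e-06). This change also passed on library sizes alone and with all 9 libraries in a single fit (edgeR, adjusted p = 0.0391 and 0.0369). Bcl3 overlaps the non-coding Gm16174 and Gm16175, which had at most 12 and 5 counts in a library, and Il6ra overlaps Gm42809, with at most 3.

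**Figure D3:**
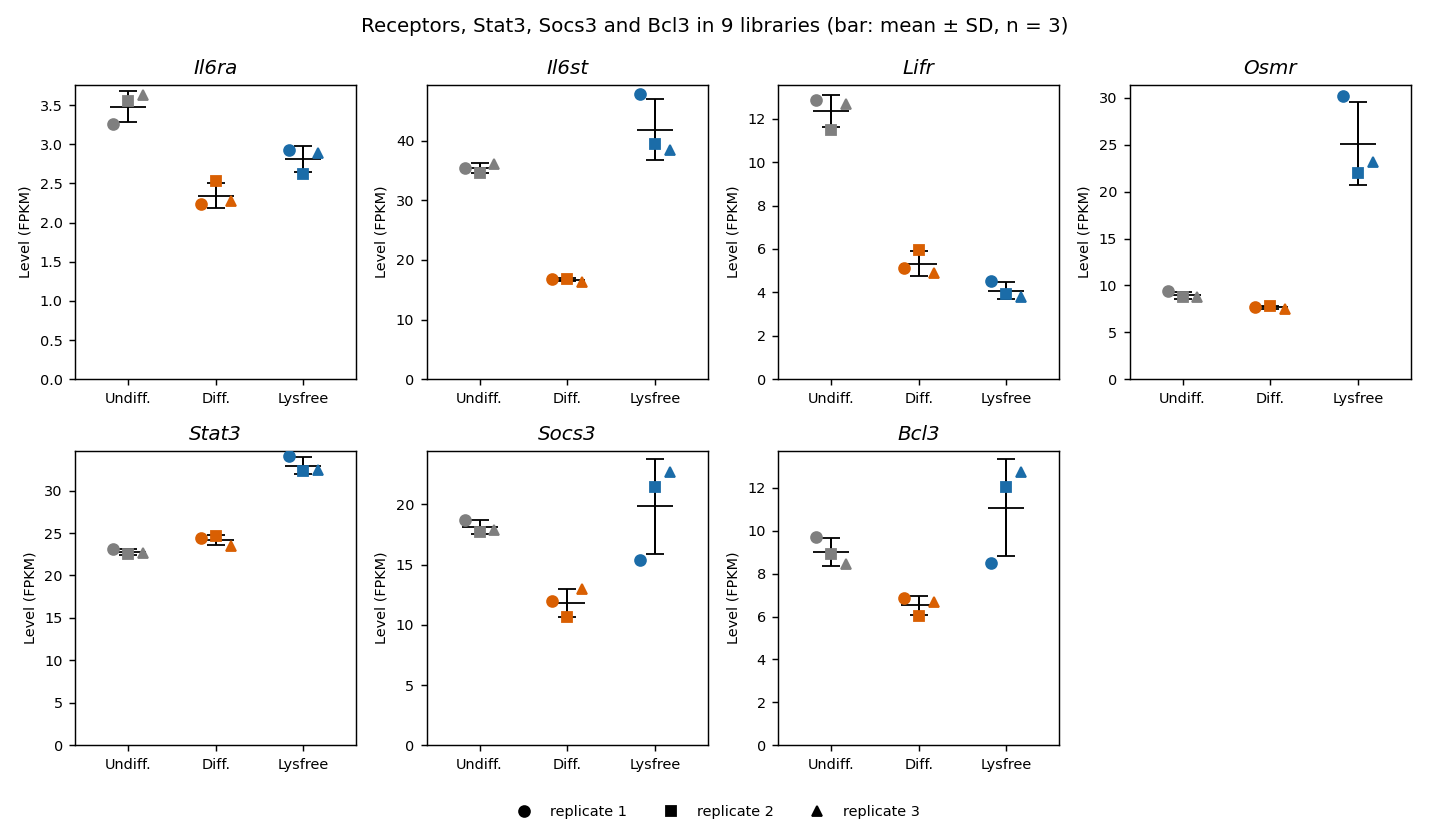
Levels of the 4 receptor chains, Stat3, Socs3 and Bcl3 in FPKM (linear axes from 0, scaled per gene) in each of the 9 libraries, with bars for mean ± SD of 3 libraries and a marker shape per replicate number. Il6st, Osmr and Stat3 are highest in all Lysfree libraries, Lifr is lower in both cocktail groups than in Undifferentiated, and Lysfree 1 (circle) lies below the other Lysfree libraries for Socs3 and Bcl3.

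Counted together, 10 of 10 genes passed the test in Lysfree vs Differentiated, 7 higher and 3 lower, where 19.7% of 24130 tested genes were higher and 18.8% lower. With the 2-fold threshold for differentially expressed genes (DEGs), 3 were higher (Il6, Osmr and Il6st) and 2 lower (Lif and Il11), with backgrounds of 8.14% and 10.5%. In Lysfree vs Undifferentiated, 4 passed as higher (Il6, Osmr, Stat3 and Il6st) and 1 as lower (Lifr), with backgrounds of 18% and 17.1% of 23994 genes, and without Lysfree 1 these counts were 6 and 2. Of them 2 DEGs were higher and 1 lower, against 5.52% and 8.76% of all genes. In Differentiated vs Undifferentiated, 2 passed as higher (Lif and Il11) and 6 as lower (the 4 receptor chains, Socs3 and Bcl3), with backgrounds of 23% and 23.2% of 24402 genes. Of these, 2 DEGs were higher and 2 lower (Il6st and Lifr), against 10.4% and 11.4%. All shares of all genes given here take in every gene with any count above 0, scarce ones included. The expression filter of edgeR kept 13617 of the 24130 genes in Lysfree vs Differentiated. The 10 genes and the lists were not set against genes of like level.

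The FPKM ranges of the groups did not overlap for 10 of the 10 genes in Lysfree vs Differentiated, where that held for 46.6% of all genes. The corresponding counts were 6 of 10 in Lysfree vs Undifferentiated (43.5% of all genes) and 10 of 10 in Differentiated vs Undifferentiated (50.9%). The median log2 fold change of the 10 genes was 0.66, 0.32 and -0.38 in the same order, and that of all tested genes was -0.06, -0.02 and 0.02. The comparisons share libraries, so their values for a gene are not independent of each other.

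**Figure D4:**
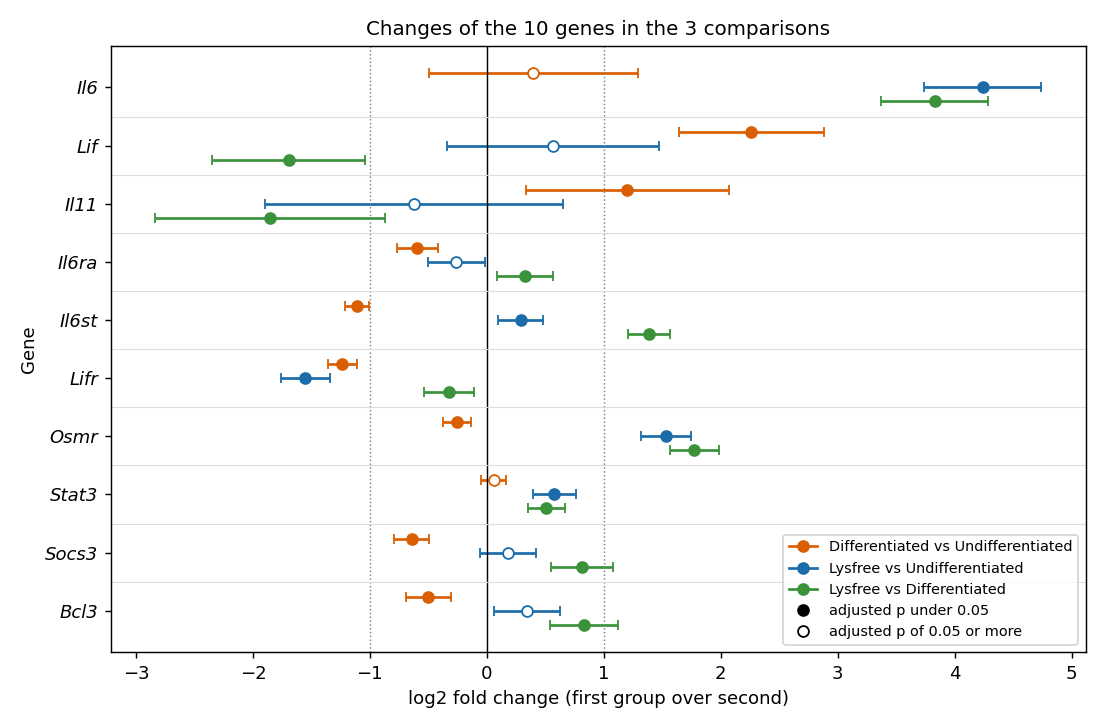
Log2 fold changes of the 10 genes (x axis) in the 3 comparisons, from edgeR, with 95% intervals as horizontal bars and dotted lines at a 2-fold change. Open points did not pass an adjusted p of 0.05, and Il6 lies at 3.83 and 4.24 in the comparisons that involve Lysfree.

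Ordered by level in FPKM, Il6st led in Undifferentiated cells, followed by Stat3, Socs3, Lifr, Bcl3, Osmr, Il6ra, Il6, Il11 and Lif. Bcl3 overlapped Osmr, and Il6, Il11 and Lif overlapped their neighbours in that order. In Differentiated cells Stat3 came before Il6st, and the rest followed as Socs3, Osmr, Bcl3, Lifr, Il6ra, Lif, Il11 and Il6, with overlap of Lif and Il11 only. In Lysfree cells the order was Il6st, Stat3, Osmr, Socs3, Bcl3, Il6, Lifr, Il6ra, Lif and Il11. Osmr overlapped Socs3, Il6 overlapped Lifr, and Lif overlapped Il11. Il6 was thus last among the 10 in Differentiated and sixth in Lysfree cells.

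The genes most like each ligand across the 9 libraries were found by Pearson's r of log2(FPKM + 1) among genes with a mean of at least 1 FPKM, as a description over 3 groups of libraries. For Il6, out of 11623 genes, they were Ptpn12, a tyrosine phosphatase (r = 0.9972), Nprl3, of the GATOR1 complex that restrains mTORC1 (0.9966), Socs2, an inhibitor of growth hormone signalling (0.9965), Mpp1 (0.9956) and Gja1, for connexin 43 (0.9955). Nprl3 shares 6196 bases with Mpg on the other strand and Mpp1 shares 45 with Dkc1. Mean levels in Undifferentiated, Differentiated and Lysfree cells were 1.20, 1.20 and 5.22 FPKM for Socs2 and 1.63, 2.02 and 10.3 FPKM for Gja1. For Lif they were Pemt, Zfp703, Agfg2, Exosc5 and Slc25a22, with r from 0.9861 to 0.9883. For Il11 they were Spty2d1, Fam133b, Actr10, Hdac2 and Fam111a, with lower r, from 0.8886 to 0.9436.

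The rest of the pathway was taken from lists of symbols. Among 9 other ligands and soluble partners of the family, Osm and Il31 were at 0 in all libraries, Ebi3 was at 0 in Differentiated and Lysfree cells, and Cntf, Ctf2 and Il27 had at most 8 counts in a library. Clcf1, for a ligand of the ciliary neurotrophic factor receptor, rose in Differentiated against Undifferentiated cells (6.42 to 14.5 FPKM, log2 1.14, edgeR adjusted p = 9.61e-45). Ctf1, for cardiotrophin-1, was 7.97, 6.85 and 3.03 FPKM in Undifferentiated, Differentiated and Lysfree cells, and was lower in Lysfree than in Differentiated cells (log2 -1.11, edgeR adjusted p = 2.87e-05). In Lysfree vs Differentiated none of 6 tested members passed as higher and 2 as lower (19.7% and 18.8% of all genes), and the list's median was -1.12. In Lysfree vs Undifferentiated 1 of 7 was higher and 2 lower (18% and 17.1% of all genes, median -1.29). Differentiated vs Undifferentiated also gave 1 of 7 higher and 2 lower (23% and 23.2%, median 0.15). The medians of -1.29 and 0.15 are the values of Il27, which had few counts and did not pass. The median of -1.12 lies between Ctf1 and the scarce Ctf2. These medians therefore do not describe the ligands with more counts.

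Of the other receptor chains, Il11ra1, the alpha chain for IL-11, was 56.9 FPKM in Undifferentiated, 12.3 in Differentiated and 16.4 in Lysfree cells. It fell in both cocktail groups (log2 -2.24 and -1.75, edgeR adjusted p = 3.75e-306 and 2.48e-15), but it overlaps Galt on its own strand over 3468 bases and several genes on the other strand, so reads may have been split between them. Cntfr, the alpha chain for ciliary neurotrophic factor, was 2.32, 1.74 and 0.189 FPKM, and was lower in Lysfree than in either other group (log2 -3.14 against Differentiated, edgeR adjusted p = 1.62e-07). Il27ra and Il31ra had at most 5 counts in any library. Of the 4 chains, 1 was higher and 1 lower in Lysfree vs Differentiated (19.7% and 18.8% of all genes, median -0.72). In Lysfree vs Undifferentiated 2 of 3 tested were lower (17.1%, median -1.75), and in Differentiated vs Undifferentiated 2 of 4 (23.2%, median 0.76). The medians of -0.72 and 0.76 depend on the fitted value of Il27ra, which had at most 1 count. The 2 lower chains in Differentiated vs Undifferentiated were Il11ra1 (log2 -2.24) and Cntfr (-0.45, edgeR adjusted p = 0.02). Among the proteases that cut receptors from the surface, Adam10 was 33.5, 21.4 and 54.6 FPKM in Undifferentiated, Differentiated and Lysfree cells, a rise of log2 1.42 in Lysfree over Differentiated (edgeR, adjusted p = 3.4e-11). Adam17 was 11.8, 16.6 and 14.2 FPKM, with a log2 difference of -0.16 in that comparison (edgeR, adjusted p = 0.194).

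Among 10 Janus kinases and other STATs, 3 passed as higher and 4 as lower in Lysfree vs Differentiated, of 9 tested (19.7% and 18.8% of all genes, median -0.16). Jak1, the kinase most used by gp130, was 61.8 FPKM in Undifferentiated, 34.3 in Differentiated and 84.2 in Lysfree cells, and rose by log2 1.36 in Lysfree over Differentiated (edgeR, adjusted p = 4.25e-11). Jak3, which overlaps Insl3, fell by 1.38 on the log2 scale in Lysfree against Differentiated cells (edgeR, adjusted p = 1.14e-07). Against Undifferentiated, Lysfree had 3 higher and 5 lower of 10 (18% and 17.1% of all genes, median -0.57), led by Stat2 at -1.77 (edgeR, adjusted p = 1.18e-15). Differentiated vs Undifferentiated gave 3 higher and 5 lower of 10 (23% and 23.2%, median -0.41), with Stat2 at -1.50 (edgeR, adjusted p = 4.77e-151) and Stat5a at 1.00 (adjusted p = 3.47e-48).

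Among 15 other negative regulators of the pathway, 7 were higher and 4 lower in Lysfree vs Differentiated (19.7% and 18.8% of all genes, median 0.28). Socs2 rose by log2 2.18 (edgeR, adjusted p = 3.56e-12) and Socs5 by 1.51 (adjusted p = 3.66e-10). Ptpn6, for the phosphatase SHP-1, was 1.26 FPKM in Undifferentiated, 4.35 in Differentiated and 0.213 in Lysfree cells, a fall of log2 -4.25 from Differentiated (edgeR, adjusted p = 1.08e-11). In Lysfree vs Undifferentiated 4 were higher and 4 lower (18% and 17.1% of all genes, median 0.17), with Socs2 at 2.17, Socs1 at -1.26 and Ptpn6 at -2.48 (edgeR, adjusted p = 1.77e-15, 3.5e-07 and 1.45e-07). In Differentiated vs Undifferentiated 6 were higher and 5 lower (23% and 23.2%, median 0.03), with Ptpn6 at 1.77, Socs1 at -1.62 and Socs5 at -2.08 (edgeR, adjusted p = 3.63e-29, 8.53e-41 and 1.43e-210).

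Other genes known as STAT3 targets moved in both directions. In Lysfree vs Differentiated 10 of 23 were higher and 7 lower (19.7% and 18.8% of all genes, median 0.62). Saa3, an acute-phase gene, had 26 to 59 counts in Lysfree, 0 to 2 in Differentiated and 13 to 37 in Undifferentiated libraries, and its difference from Differentiated passed (edgeR, adjusted p = 2.04e-07). Hp, for haptoglobin, another acute-phase protein that fat cells also make, was 1.77, 35.1 and 0.627 FPKM in Undifferentiated, Differentiated and Lysfree cells, log2 -5.72 in Lysfree against Differentiated (edgeR, adjusted p = 3.2e-15). Fosl1, an AP-1 subunit, was 5.69, 251.4 and 14.7 FPKM in the same order, log2 -4.03 (edgeR, adjusted p = 2.4e-15). Lysfree vs Undifferentiated gave 12 higher and 4 lower (18% and 17.1% of all genes, median 0.59), with Lcn2, for lipocalin 2, at 3.39, Myc at 2.50 and Fos at -1.65 (edgeR, adjusted p = 6.28e-21, 6.45e-19 and 4.78e-06). Myc was high in both cocktail groups, at 11.2, 63.9 and 61.5 FPKM in Undifferentiated, Differentiated and Lysfree cells. Fos was 1.82, 8.43 and 0.564 FPKM in the same order. Differentiated vs Undifferentiated gave 11 higher and 9 lower (23% and 23.2%, median 0.14), with Fosl1 at 5.43, Hp at 4.23 and Lcn2 at 2.71, each of them past the test in edgeR. Fosl1 and Hp were thus highest in Differentiated cells, where the adipocyte markers were highest, and the part of the adipocyte programme in their values was not tested.

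**Figure D5:**
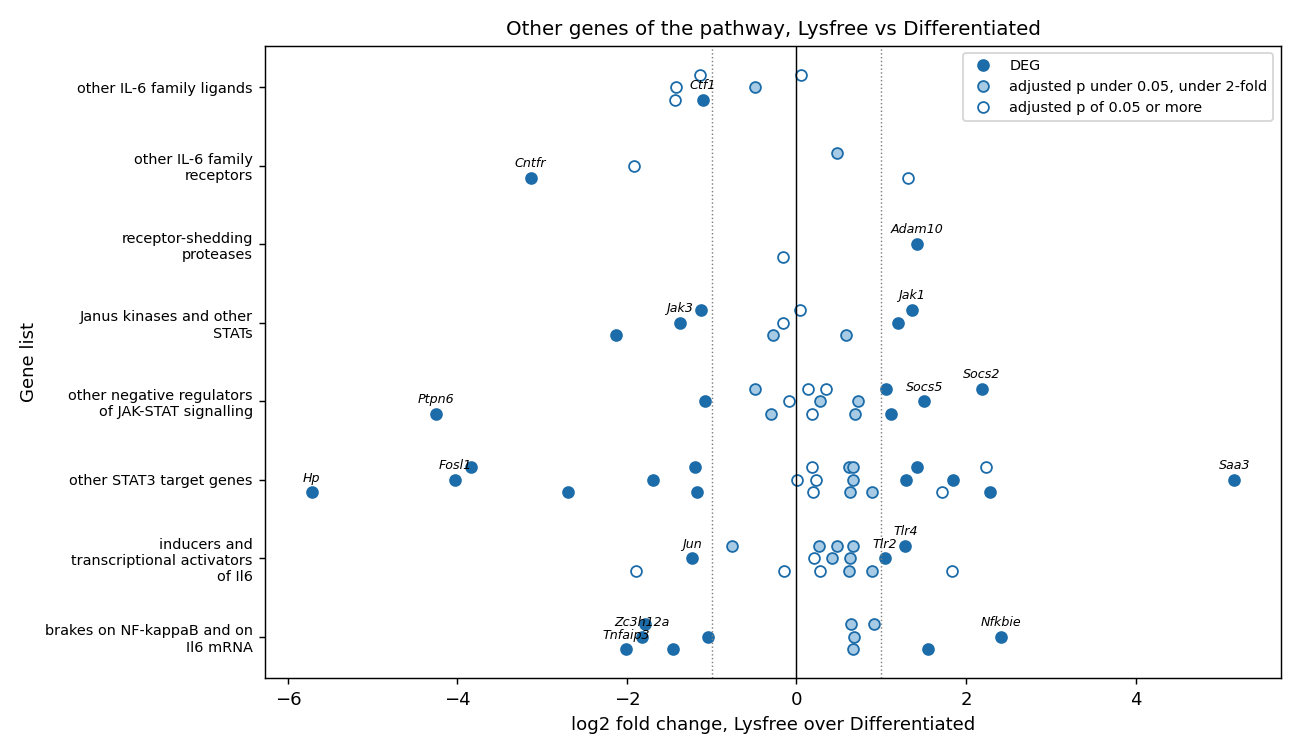
Log2 fold changes in Lysfree vs Differentiated (x axis, dotted lines at 2-fold) of the tested members of 8 gene lists (y axis, points shifted vertically to part them). Filled points are DEGs, pale points passed the test under 2-fold and open points did not pass. Named genes are among the largest DEGs of each list, from Hp at -5.72 to Saa3 at 5.17 as fitted, the latter on 0 to 2 counts in Differentiated libraries.

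The known inducers and activators of Il6 were read beside the promoter of Il6 shown above. Tnf was at 0 in all 9 libraries, and Il1a and Il1b had at most 1 count in any library. In Lysfree vs Differentiated 9 of 16 tested members were higher and 2 lower (19.7% and 18.8% of all genes, median 0.45). Tlr4, the endotoxin receptor, rose by log2 1.28 (3.09 to 7.22 FPKM, edgeR adjusted p = 1.27e-06), and Tlr2 by 1.04 (0.997 to 1.97 FPKM, adjusted p = 0.000655). Rela, the main activating NF-kappaB subunit, rose from 25.5 to 38.7 FPKM (log2 0.67, edgeR adjusted p = 6.38e-06), which is under 2-fold and was picked out after its values were seen. Jun, of AP-1, was 23.4, 51.5 and 20.9 FPKM in Undifferentiated, Differentiated and Lysfree cells, log2 -1.23 in Lysfree against Differentiated (edgeR, adjusted p = 1.86e-09). Against Undifferentiated, Lysfree had 4 of 15 higher and 2 lower (18% and 17.1% of all genes, median 0.10), with Tlr2 at -1.66 (edgeR, adjusted p = 1.26e-09). Of the 16 tested in Differentiated vs Undifferentiated, 3 were higher and 9 lower (23% and 23.2%, median -0.41), with Tlr2 at -2.72, Nfkbiz, an atypical IkappaB that co-activates Il6, at 1.20 and Jun at 1.11 (edgeR, adjusted p = 2.26e-79, 6.39e-61 and 1.52e-76).

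Of 11 genes that restrain NF-kappaB or shorten the life of Il6 mRNA, all passed the test in Lysfree vs Differentiated, 6 higher and 5 lower (19.7% and 18.8% of all genes, median 0.64). Zc3h12a, for the endonuclease Regnase-1 that cuts Il6 mRNA, was 6.72, 15.8 and 4.27 FPKM in Undifferentiated, Differentiated and Lysfree cells (log2 -1.82 in Lysfree against Differentiated, edgeR adjusted p = 4.55e-10). Tnfaip3, for the ubiquitin-editing enzyme A20, was 1.52, 4.94 and 1.18 FPKM (log2 -2.01, edgeR adjusted p = 4.52e-11). Nfkbie, for IkappaB epsilon, rose by log2 2.41 (edgeR, adjusted p = 9.5e-09). In Lysfree vs Undifferentiated 4 were higher and 4 lower (18% and 17.1% of all genes, median -0.32). There Arid5a, for a protein that protects Il6 mRNA from Regnase-1 and so acts against the name of the list, was at 1.25 (edgeR, adjusted p = 2.6e-06), Dusp1, for a phosphatase of p38 and JNK kinases, at 1.94 (adjusted p = 4.46e-13) and Nfkbib, which overlaps Sirt2, at 1.21 (adjusted p = 3.73e-09). In Differentiated vs Undifferentiated 6 were higher and 4 lower (23% and 23.2%, median 0.38), with Dusp1 at 3.38, Tnfaip3 at 1.67 and Nfkbie at -3.16, each of them past the test in edgeR. The difference of Zc3h12a between Lysfree and Undifferentiated cells was log2 -0.60 (edgeR, adjusted p = 0.00182), that of Tnfaip3 was -0.32 and did not pass (adjusted p = 0.141).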

How the data were processed

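RNA-seq of 9 libraries was used, and groups came from the sample titles. Per the labels and the study's methods, poly A libraries were read as paired ends on NovaSeq, mapped to mm10 with HISAT2 (2.0.5) and counted with featureCounts (1.5.0-p3), as the submitters' processing notes name them. The strand setting and the annotation release are not given in the sources used here. The authors deposited raw read counts for 54532 genes, which sum to 15880144 to 21806693 per library. The authors also deposited FPKM values of the same genes, that is, counts scaled for gene length and library total, and levels printed here are FPKM.

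Counts were tested with edgeR 4.0.16 (quasi-likelihood F test, TMM factors, Benjamini-Hochberg adjustment) in R 4.3.3, over the 6 libraries of each comparison and genes with any count above 0. A gene passed at an adjusted p under 0.05, and DEGs were also at least 2-fold changed. The SE is the log2 fold change over the square root of F, and 95% intervals are 1.96 SE each way. In Differentiated vs Undifferentiated edgeR found no gene-to-gene spread of dispersion beyond its trend, which makes those p-values very small. Alternatives were DESeq2 1.42.0, limma 3.58.1 on log2 FPKM with a pseudocount of 1 or 0.1, other scalings, filters and blocks, and leaving out each library.

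The 10 genes and all lists were chosen with earlier results of these data known. From each list the text names up to 3 DEGs of the largest change per comparison at a mean of at least 1 CPM, all marker genes at that mean, and the 5 genes most correlated with each ligand. Il11ra2, whose symbol is not unique in the tables, was not used. Some genes that this rule picks are not reported here. Promoters were read from RefSeq (GRCm38.p6).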

Additional observations from a re-analysis of the deposited data

How the results depend on the processing

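Of 443 values for the 10 genes under the alternatives, 407 kept their direction and side of the threshold, 27 no longer passed, 8 newly passed and 1 turned, and of 624 counts over the lists 568 stayed within 1.5 times. The value that turned was Il11 in Lysfree vs Undifferentiated, at 0.065 without Undifferentiated 1 (edgeR, adjusted p = 0.96), within a range of -1.11 to 0.065 over the fits that left out a library. Of the 10 genes, 4 were DEGs between Differentiated and Undifferentiated, 3 between Lysfree and Undifferentiated and 5 between Lysfree and Differentiated. Without the fold threshold these were 8, 5 and 10. With at least 10 counts in every library they were 2 in the first and 3 in the last, where scarce ligand genes were no longer tested. With limma on log2(FPKM + 1) they were also 2 and 3. With a pseudocount of 0.1 in place of 1, limma gave 1 higher and 2 lower in the first, and 3 higher and 2 lower in the last. The log2 fold change of Il11 in the first was 0.34 with the pseudocount of 1 and 1.05 with that of 0.1. Over all genes the DEGs were 5329, 3426 and 4507, and 11260, 8428 and 9280 without the fold threshold. They were 3488, 2244 and 2891 with the count minimum, and 2726, 1474 and 2198 with limma on log2(FPKM + 1). Same-numbered libraries did not deviate together (correlations -0.1266 to 0.1454 over 9 pairs, 2 over 0.1). A replicate block left 4, 3 and 5 of the 10 genes as DEGs, and of the 10 genes' calls it changed that of Il6ra in Lysfree vs Differentiated (adjusted p = 0.0649). Among the 13617 genes kept by the expression filter of edgeR in Lysfree vs Differentiated, the median log2 fold change was 0.107 with library sizes alone. With TMM it was 0.033 in that set, and -0.06 over all 24130 tested genes. Counts of 3 to 27 for Il11 and 7 to 53 for Lif limit what could be seen of them.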
